A study of Homo sapiens with 4 samples.

Results

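The genes that build cholesterol and fatty acids, with the SREBP genes that control them, were followed in 697 cells treated with the BET degrader MZ1. The members were 32 genes chosen by symbol for their place in these pathways, and all 32 had a row among the 28814 genes of the count table. They were 18 enzymes of the sterol arm (7 that lead to farnesyl diphosphate and 11 from squalene to cholesterol), 8 enzymes of the fatty acid arm, 5 genes of SREBP control and the sterol transfer gene STARD4. 697 is an established human B-cell acute lymphoblastic leukaemia line. It was cultured for 24 h with 1 µM MZ1 (2 libraries) or with an equal volume of the solvent DMSO (2 libraries), and no other agent or genetic change is given for either group. MZ1 is a bifunctional molecule that brings BET proteins to the VHL ubiquitin ligase for destruction, so it acts on proteins and the transcript counts do not check the treatment label. Each group is the same line, and the labels do not say whether replicates were separate cultures, so p-values reflect only how far the libraries of a group differ, and that spread may be technical.

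Cholesterol is made from acetyl-CoA through mevalonate, isoprenoid diphosphates, squalene and lanosterol. Fatty acids are made from the same acetyl-CoA by carboxylation to malonyl-CoA, chain building, elongation and desaturation. Both arms are switched on by SREBP transcription factors, which SCAP carries out of the endoplasmic reticulum when sterols are low and INSIG proteins retain there when sterols are high. SREBF1 products are best known for fatty acid genes and SREBF2 products for sterol genes. Dividing lymphoid cells use both arms to build membranes.

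The libraries held 14246367 to 16488005 counted reads. Levels are TMM-scaled CPM, the share of a library's reads, and each log2 fold change is MZ1 over DMSO from edgeR's quasi-likelihood test over 16862 genes, called at a Benjamini-Hochberg adjusted p below 0.05. MZ1 changed most transcripts: 84.2% of all tested genes were called, 42.8% as higher and 41.3% as lower. All 11 B-cell precursor markers were measured, with a summed level of 1202 and 1265 CPM in the MZ1 libraries, against 3827 and 3805 CPM in the DMSO libraries. Markers of other lineages were low: the 5 T-cell markers, of which only CD8A had a row, summed to 3.83 to 4.10 CPM with MZ1 and 0.472 to 0.672 CPM with DMSO, and the 5 myeloid markers, 4 of them with a row, to 17.2 to 21.1 CPM with MZ1 and 5.31 to 6.35 CPM with DMSO. Erythroid markers (3 of 4 with a row) summed to 2.39 to 3.04 CPM with MZ1 and 0.122 to 0.472 CPM with DMSO, hepatocyte or adipocyte markers (3 of 5) to 2.55 to 3.69 CPM with MZ1 and 0.177 to 0.367 CPM with DMSO, and COL1A1, the one epithelial or fibroblast marker with a row, to 13.7 to 13.9 CPM with MZ1 and 10.6 to 12.5 CPM with DMSO. Of the B-cell precursor markers 9 were called lower, RAG2 was called higher and RAG1 was not called. Of the other markers tested, CD8A, MPO, LYZ, CD14, ALAS2, ALB and APOA1 were called higher, CSF1R was called lower and COL1A1 was not called. The part of these markers in the results was not tested. Levels are relative to a library's scaled total, and in bulk RNA a change in the kind of cells and a change in RNA per cell cannot be told apart.

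Most genes of both arms were lower with MZ1, and the median fall was larger in the fatty acid arm than in the sterol arm. Of the 32 members, all of which passed the count filter, 26 were called lower, 3 higher and 3 were not called. Among all tested genes 41.3% were called lower and 42.8% higher. All 8 fatty acid genes fell, and 7 of them fell at least 2-fold, where 26.2% of all tested genes did so. In the sterol arm 14 of 18 enzymes fell, 2 rose and 2 were not called. Of the 18, 6 fell at least 2-fold, near the 26.2% of all tested genes, so the 2-fold count is not a result about that arm. The median log2 fold change was −1.79 in the fatty acid arm, −0.70 in the sterol arm and −0.43 among the SREBP control genes, against 0.05 over all tested genes. Both MZ1 libraries lay below both DMSO libraries for 26 members (44.7% of all tested genes) and above them for 5 (46.6%). Upper-quartile scaling raised the median change over all tested genes by 0.271 on the log2 scale. The members then split into 22 lower and 6 higher, the sterol enzymes into 12 lower and 4 higher, while the 8 fatty acid genes were all still called lower.

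**Figure D1:**
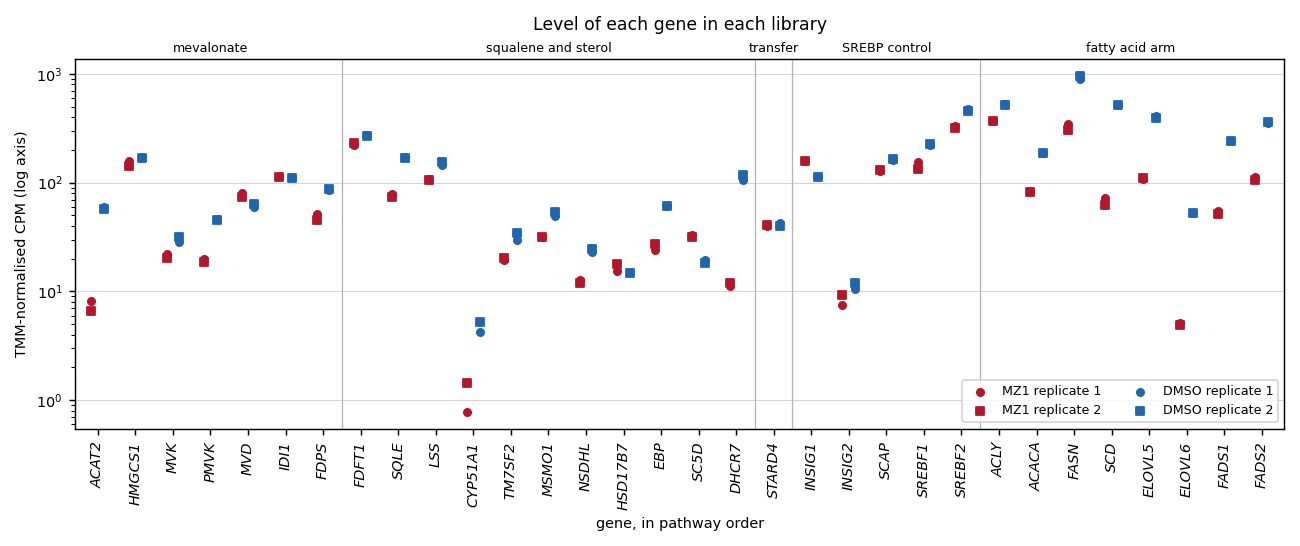
TMM-normalised CPM (log axis) of each gene in each of the 4 libraries, with MZ1 in red and DMSO in blue, and genes grouped by role. The red points lie below the blue points for all 8 fatty acid genes, by the widest margins for SCD and ELOVL6, and above them for MVD, IDI1, HSD17B7, SC5D and INSIG1.

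The summed level of the fatty acid arm was 1156 and 1089 CPM in the MZ1 libraries, against 3189 and 3242 CPM in the DMSO libraries. The sterol arm summed to 1013 and 983 CPM with MZ1, against 1461 and 1489 CPM with DMSO. The MZ1 sum was thus 34.9% of the DMSO sum for fatty acid genes and 67.7% for sterol genes. Reads of the fatty acid arm outnumbered those of the sterol arm 1.14 and 1.11 times in the MZ1 libraries, against 2.18 times in each DMSO library. The groups did not overlap. The sums are not divided by exon length, so they do not show which arm had more transcript molecules. On the log2 scale the sterol to fatty acid ratio was higher with MZ1 by 0.96, or by 0.88 when FASN and FDFT1, the most abundant gene of each arm, were left out. These sums were not tested, since the smallest two-sided exact permutation p for groups of 2 is 0.333. FASN held 28.0% to 30.1% of the fatty acid sum with MZ1 and 28.2% to 29.8% with DMSO.

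**Figure D2:**
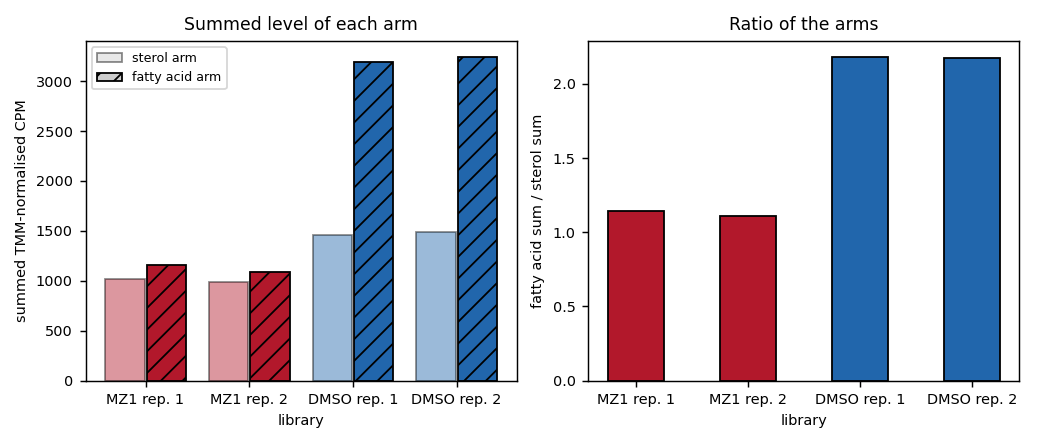
Left, summed TMM-normalised CPM of the 18 sterol enzymes (pale bars) and the 8 fatty acid enzymes (hatched bars) in each library. Right, the ratio of the fatty acid sum to the sterol sum, which is 1.14 and 1.11 in the MZ1 libraries and 2.18 in each DMSO library.

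The fatty acid genes are given first, in the order of their reactions. ACLY, which splits citrate to supply cytosolic acetyl-CoA, had 370 and 367 CPM in MZ1 libraries, against 526 and 521 CPM in DMSO libraries. It fell least of the arm, by a log2 fold change of −0.51 ± 0.04 (SE), or 1.42-fold. ACACA, the carboxylase that makes malonyl-CoA, had 84.2 and 81.5 CPM with MZ1, against 187 CPM in both DMSO libraries, and fell 2.26-fold. FASN (chromosome 17, 82078333 to 82098332, GRCh38), which builds palmitate, had 348 and 305 CPM with MZ1, against 899 and 965 CPM with DMSO. The groups stood far apart although the FASN replicates varied more than those of ACLY and ACACA. The change of FASN was −1.51 ± 0.05 (edgeR adjusted p = 1.71e-19), or 2.86-fold lower, and 17.9% of all tested genes had a lower log2 fold change.

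Those members that lengthen and desaturate the chain fell further than FASN. SCD (chromosome 10, 100347124 to 100364834), the desaturase that makes oleate, had 72.9 and 62.6 CPM in MZ1 libraries, against 521 and 516 CPM in DMSO libraries, a change of −2.94 ± 0.05 (edgeR adjusted p = 2.31e-24). ELOVL6 (chromosome 4, 110045846 to 110199199), which extends palmitate to stearate, had 5.16 and 4.91 CPM with MZ1, against 52.4 and 52.3 CPM with DMSO. It fell most of all 32 members, 10.4-fold, a change of −3.37 ± 0.11 (edgeR adjusted p = 2.83e-19), and 4.03% of all tested genes had a lower log2 fold change. ELOVL5, an elongase of polyunsaturated chains, had 108 and 111 CPM with MZ1, against 409 and 395 CPM with DMSO, and fell 3.69-fold. The delta-5 desaturase gene FADS1 had 54.5 and 51.8 CPM with MZ1, against 243 CPM in both DMSO libraries, and fell 4.57-fold. FADS2, the delta-6 desaturase gene beside it on chromosome 11, had 114 and 106 CPM with MZ1, against 351 and 363 CPM with DMSO, and fell 3.25-fold. FADS1 and FADS2 share 490 bases of exon on opposite strands, under 5% of either, and it is not given whether counting used the strand.

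Per kilobase of annotated exon, ELOVL5, ACLY, FASN and SCD were the most abundant members with DMSO, at mean levels of 28.6, 70.6, 34.9 and 12.6 CPM per kb with MZ1 and 105, 100.4, 99.5 and 96.7 CPM per kb with DMSO. With DMSO the FASN libraries (96.0 and 103 CPM per kb) enclosed those of ACLY and SCD, so these were not separated from FASN by more than their spread. With MZ1 the order changed: ACLY led at 70.6 CPM per kb, and the sterol and control genes FDFT1 (43.5), SREBF2 (43.3) and INSIG1 (43.1) stood above FASN (34.9), in CPM per kb. The ELOVL5 to ELOVL6 ratio per kb was 39.8 and 43.0 with MZ1, against 14.96 and 14.45 with DMSO. The FADS1 to FADS2 ratio was 0.518 and 0.526 with MZ1, against 0.748 and 0.720 with DMSO.

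**Figure D3:**
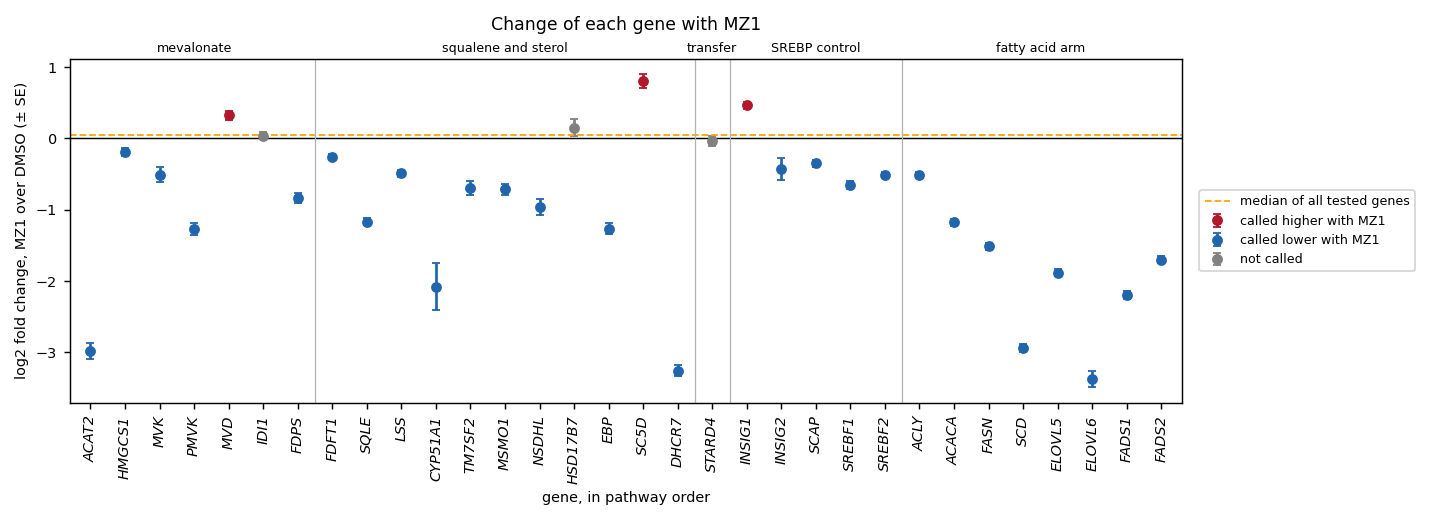
Log2 fold change of each gene (MZ1 over DMSO) with its standard error, coloured by call, and the median of all tested genes (0.05) as a dashed line. The fatty acid genes run from −0.51 (ACLY) to −3.37 (ELOVL6), whereas the sterol enzymes spread from 0.80 (SC5D) to −3.25 (DHCR7).

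The sterol arm was uneven. Of the 7 enzymes that lead to farnesyl diphosphate 5 fell, 1 rose and 1 was not called. The shares over all tested genes were 41.3% lower and 42.8% higher. ACAT2, the cytosolic thiolase that joins acetyl-CoA units, had 8.21 and 6.65 CPM with MZ1, against 60.2 and 57.2 CPM with DMSO, the largest change of the 7 at −2.98 ± 0.11 (edgeR adjusted p = 9.95e-19). Its exons share 52.3% of their length with genes on the opposite strand, among them SOD2 and TCP1, so its count is uncertain. HMGCS1, which makes HMG-CoA, had 158 and 142 CPM with MZ1, against 174 and 169 CPM with DMSO. This small fall (−0.19 ± 0.05, edgeR adjusted p = 0.00151) was lost with a stricter count filter (−0.02) and without MZ1 replicate 2 (−0.11), and was 0.08 with upper-quartile scaling. The kinase genes MVK and PMVK fell 1.42-fold and 2.41-fold, and FDPS, which makes farnesyl diphosphate, fell 1.78-fold. Antisense genes cover 14.95% of the exons of HMGCS1, 14.8% of those of IDI1 and 18.6% of those of FDPS, and reads from the paired genes could not be told apart without strand. MVD, the decarboxylase that acts after PMVK, rose 1.25-fold, with 80.8 and 73.9 CPM with MZ1, against 59.4 and 64.2 CPM with DMSO (0.32 ± 0.06, edgeR adjusted p = 4.81e-05). IDI1, the isomerase of isopentenyl diphosphate, had 116 and 113 CPM with MZ1, against 112 and 111 CPM with DMSO, and was not called (0.04 ± 0.05, edgeR adjusted p = 0.484), though it was called higher with upper-quartile scaling (0.31) and the stricter filter (0.21).

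From squalene onward 9 of 11 enzymes fell, 1 rose and 1 was not called, where 41.3% of all tested genes were lower. DHCR7 (chromosome 11, 71428193 to 71452868), which reduces 7-dehydrocholesterol to cholesterol, had 11.2 and 12.1 CPM with MZ1, against 106 and 117 CPM with DMSO. It fell by 3.25 ± 0.08 on the log2 scale (edgeR adjusted p = 8.46e-22), the largest fall of the sterol arm. SC5D, the desaturase that makes the substrate of DHCR7, went the other way. It had 33.3 and 31.8 CPM with MZ1, against 19.2 and 18.2 CPM with DMSO, and rose 1.74-fold (0.80 ± 0.10, edgeR adjusted p = 4.62e-08), the largest rise of all 32 members. EBP, the isomerase upstream of SC5D, had 23.8 and 27.0 CPM with MZ1, against 61.5 and 60.9 CPM with DMSO, and fell 2.41-fold. The 2 extremes of the sterol arm thus belong to consecutive reactions.

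At the entry to the branch, FDFT1, which makes squalene, had 222 and 230 CPM with MZ1, against 272 and 269 CPM with DMSO. Its fall (−0.26 ± 0.04) was lost with the stricter filter (−0.09) and was 0.01 with upper-quartile scaling. SQLE, the oxygenase that makes squalene epoxide, had 78.2 and 73.7 CPM with MZ1, against 171 and 170 CPM with DMSO, and fell further, by 1.17 ± 0.05 on the log2 scale. LSS, which closes the ring to lanosterol, fell 1.41-fold. The demethylation and reduction enzymes TM7SF2, MSMO1 and NSDHL fell 1.62-fold, 1.64-fold and 1.95-fold. CYP51A1, the lanosterol demethylase, fell to 0.778 and 1.45 CPM with MZ1, against 4.22 and 5.19 CPM with DMSO, with 11 and 20 reads in the MZ1 libraries. Of its exons 79.4% also belong to a same-strand GENCODE gene with no row in the table, so its low level and its 4.22-fold change are uncertain. HSD17B7, the 3-ketosteroid reductase, had 15.6 and 17.8 CPM with MZ1, against 15.2 and 14.9 CPM with DMSO, and was not called (edgeR adjusted p = 0.255), but was called higher with upper-quartile scaling (0.42) and the stricter filter (0.32). Its pseudogene HSD17B7P2 on chromosome 10 had 300 and 281 reads with MZ1, against 98 and 101 with DMSO, and how reads were divided between the copies is not given. STARD4, a carrier of free cholesterol between membranes, had 39.8 and 40.7 CPM with MZ1, against 42.2 and 40.3 CPM with DMSO. These ranges overlapped (−0.04 ± 0.08), and STARD4 was called higher with upper-quartile scaling (0.24).

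Among the control genes, 4 of 5 fell and INSIG1 rose, where 41.3% of all tested genes were lower and 42.8% higher. INSIG1 (chromosome 7, 155297776 to 155310235), itself a classic target of SREBP, had 157 and 158 CPM with MZ1, against 115 and 113 CPM with DMSO, a change of 0.46 ± 0.05 (edgeR adjusted p = 2.40e-09). Its paralog INSIG2 had 7.50 and 9.25 CPM with MZ1, against 10.6 and 11.9 CPM with DMSO. The fall of INSIG2 (−0.43 ± 0.16, edgeR adjusted p = 0.0142) was lost with DESeq2 (−0.40), with the stricter filter (−0.26), with upper-quartile scaling (−0.16), and without MZ1 replicate 1 (−0.28) or DMSO replicate 2 (−0.38). The INSIG1 to INSIG2 ratio per kb was 22.6 and 18.5 with MZ1, against 11.7 and 10.3 with DMSO, with no overlap between the groups.

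Both SREBP genes fell. SREBF1 had 154 and 133 CPM with MZ1, against 221 and 229 CPM with DMSO (−0.65 ± 0.05). RAI1, on the opposite strand, covers 6.92% of its exons and had 995 and 970 reads with MZ1, against 3284 and 3522 with DMSO. It is not given whether counting used the strand. SREBF2 (chromosome 22, 41833079 to 41907308) had 333 and 321 CPM with MZ1, against 476 and 455 CPM with DMSO (−0.51 ± 0.04). Their ratio per kb, SREBF1 over SREBF2, was 0.436 and 0.389 with MZ1 and 0.437 and 0.473 with DMSO, and the nearest libraries of the 2 groups were closer than the replicates of either. SCAP fell less, to 128 and 131 CPM with MZ1, against 163 and 166 CPM with DMSO (−0.35 ± 0.05), and was not called with upper-quartile scaling (−0.08).

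Promoter windows (250 bases before to 50 after the start, GRCh38.p14) were in the RefSeq table for 28 members, and ACAT2, FDFT1, SQLE and FASN were not matched. Each window was searched on both strands for the sterol response element core TCACNCCAC, where SREBP binds in some of its targets, the E-box CACGTG, the CCAAT box bound by NF-Y, a partner of SREBP, and the GC box GGGCGG bound by SP1-type factors. No matches of different motifs shared bases. The CCAAT box was present in 12 of 15 sterol arm windows and 3 of 7 fatty acid windows, against 36.7% of 11076 windows of tested genes. The GC box was present in 14 of 15 sterol and 5 of 7 fatty acid windows, against 68.3%, and the E-box in 2 of 15 and 1 of 7, against 9.95%. The sterol response element core was found in 1 member, SREBF2, at position −133 from the start, against 1.16% of windows of tested genes. These matches describe the letters of the windows and do not show binding. Each window marks a single annotated start, which need not be the outer end of the GENCODE gene. For IDI1 the window (1056655 to 1056954) lies outside the GENCODE gene (1039152 to 1049170). For others, among them ACLY, FADS1, FADS2 and DHCR7, it lies inside the gene. Which starts the cells used was not tested.

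The windows shown are those of SREBF2, of the 3 members that rose (INSIG1, MVD and SC5D) and of ELOVL6, DHCR7 and SCD, which fell most among members with a window. Capitals mark the sterol response element core, the E-box and the CCAAT box on either strand, and all read 5′ to 3′ in the direction of the gene.
SREBF2 (chr22:41832855-41833154, plus strand): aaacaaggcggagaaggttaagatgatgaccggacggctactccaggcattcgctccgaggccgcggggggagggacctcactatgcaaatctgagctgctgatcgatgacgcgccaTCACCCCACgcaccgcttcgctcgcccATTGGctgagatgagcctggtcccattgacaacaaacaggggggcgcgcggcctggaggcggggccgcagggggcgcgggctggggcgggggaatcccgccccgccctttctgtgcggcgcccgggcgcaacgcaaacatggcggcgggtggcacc
INSIG1 (chr7:155297628-155297927, plus strand): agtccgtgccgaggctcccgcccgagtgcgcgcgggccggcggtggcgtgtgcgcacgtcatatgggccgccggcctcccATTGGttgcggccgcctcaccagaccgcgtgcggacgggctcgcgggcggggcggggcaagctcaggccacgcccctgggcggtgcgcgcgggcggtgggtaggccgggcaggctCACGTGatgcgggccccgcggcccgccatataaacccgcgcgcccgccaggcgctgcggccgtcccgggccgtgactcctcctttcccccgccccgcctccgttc
MVD (chr16:88663042-88663341, minus strand): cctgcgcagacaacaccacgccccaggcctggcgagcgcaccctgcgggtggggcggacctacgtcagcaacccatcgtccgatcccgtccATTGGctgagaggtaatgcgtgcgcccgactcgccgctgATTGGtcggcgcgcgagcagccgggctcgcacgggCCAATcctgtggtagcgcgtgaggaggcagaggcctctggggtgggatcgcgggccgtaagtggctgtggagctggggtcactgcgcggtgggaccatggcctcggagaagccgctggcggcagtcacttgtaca
SC5D (chr11:121292521-121292820, plus strand): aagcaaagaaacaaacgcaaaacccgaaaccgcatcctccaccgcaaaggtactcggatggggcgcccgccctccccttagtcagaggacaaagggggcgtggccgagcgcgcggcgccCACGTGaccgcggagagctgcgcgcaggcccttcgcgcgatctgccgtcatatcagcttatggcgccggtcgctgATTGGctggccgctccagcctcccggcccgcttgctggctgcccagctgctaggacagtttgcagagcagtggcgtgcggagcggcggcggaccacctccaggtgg
ELOVL6 (chr4:110198566-110198865, minus strand): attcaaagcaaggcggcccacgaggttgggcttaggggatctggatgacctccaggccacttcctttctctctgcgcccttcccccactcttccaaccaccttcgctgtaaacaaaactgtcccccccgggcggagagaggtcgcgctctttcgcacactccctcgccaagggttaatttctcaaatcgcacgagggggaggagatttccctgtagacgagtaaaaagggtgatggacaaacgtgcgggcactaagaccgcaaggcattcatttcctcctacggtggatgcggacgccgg
DHCR7 (chr11:71448344-71448643, minus strand): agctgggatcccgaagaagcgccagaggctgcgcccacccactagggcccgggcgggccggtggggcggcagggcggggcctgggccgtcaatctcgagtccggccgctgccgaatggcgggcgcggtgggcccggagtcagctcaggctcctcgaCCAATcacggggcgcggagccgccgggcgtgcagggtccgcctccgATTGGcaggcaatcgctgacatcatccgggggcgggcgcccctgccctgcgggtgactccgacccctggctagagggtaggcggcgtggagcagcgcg
SCD (chr10:100346983-100347282, plus strand): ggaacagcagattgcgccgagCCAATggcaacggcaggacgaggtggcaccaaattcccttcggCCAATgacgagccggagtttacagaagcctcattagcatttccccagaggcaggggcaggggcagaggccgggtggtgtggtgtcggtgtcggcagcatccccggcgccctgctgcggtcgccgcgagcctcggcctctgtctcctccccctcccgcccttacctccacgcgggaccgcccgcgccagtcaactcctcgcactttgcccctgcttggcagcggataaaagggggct
All 3 members that rose carried at least 1 CCAAT box, as did DHCR7 and SCD, while ELOVL6 carried none, so the box was present on both sides of the change. INSIG1 and SC5D also carried an E-box, at positions −55 and −131, as did 3 members that fell (LSS, SCAP and ELOVL5).

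Other lipid genes were described from 6 lists of pathway neighbours. The first list held enzymes that draw isoprenoids away from cholesterol and LBR, a sterol reductase of the same step as TM7SF2. Of its 11 genes 8 were lower, 1 was higher and 2, LBR and FNTB, were not called (median −1.80), where 41.3% of all tested genes were lower. PDSS1, which builds the tail of coenzyme Q, fell 8.92-fold, to 3.89 and 4.84 CPM with MZ1, against 41.2 and 36.7 CPM with DMSO. NUS1 and DHDDS encode the subunits of the enzyme that makes the dolichol chain, and moved in opposite directions: NUS1 fell 6.52-fold and DHDDS rose 1.34-fold. The DHDDS log2 value of 0.43 was 0.27 without DMSO replicate 2. With upper-quartile scaling 3 genes of this list were called higher.

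Of the genes that move, cleave or destroy the SREBP system, 8 of 19 tested were higher and 10 lower (median −0.22), shares near the 42.8% higher and 41.3% lower of all tested genes. MBTPS2, the site-2 protease that frees the active factor, fell 6.34-fold, and RNF145, a ubiquitin ligase of SCAP, fell 5.43-fold. ERLIN1, which encodes a scaffold protein of the endoplasmic reticulum, fell 1.83-fold. FBXW7, the ligase subunit that marks nuclear SREBP for destruction, rose 1.87-fold, and UFD1, which takes part in degradation from the endoplasmic reticulum, rose 2.68-fold.

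Of the sterol efflux, uptake and LXR genes, 7 of 13 tested were higher and 5 lower (median 0.54), against 42.8% higher and 41.3% lower over all tested genes, so the count is not a result about the list. NPC1 and NPC2, which export cholesterol from lysosomes, both rose. NPC1 averaged 159 ± 3.85 CPM with MZ1 and 54.0 ± 1.96 CPM with DMSO (SD, n = 2 each). NPC2 averaged 89.2 ± 0.349 CPM with MZ1 and 20.1 ± 0.877 CPM with DMSO (SD, n = 2 each). MYLIP, an LXR target whose product degrades lipoprotein receptors, rose 3.97-fold, and NR1H2, which encodes LXR beta, fell 3.96-fold. The lipoprotein receptor genes SCARB1 and VLDLR fell 1.92-fold and 2.15-fold.

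Among other genes of fatty acid supply, elongation and activation, 16 of 21 tested were lower and 4 higher (median −0.53), where 41.3% of all tested genes were lower. HACD3, 1 of several dehydratases of the elongation cycle, fell 4.17-fold, ELOVL2, an elongase of very long polyunsaturated chains, 4.33-fold, and ACSL5, an acyl-CoA synthetase, 10.6-fold. ACSL1, of the same function, rose 2.72-fold and IDH1, a source of NADPH, 1.38-fold. FADS3, the third gene of the desaturase cluster on chromosome 11, rose 2.02-fold, to 30.1 and 26.5 CPM with MZ1, against 14.7 and 13.4 CPM with DMSO, while its neighbours FADS1 and FADS2 fell.

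**Figure D4:**
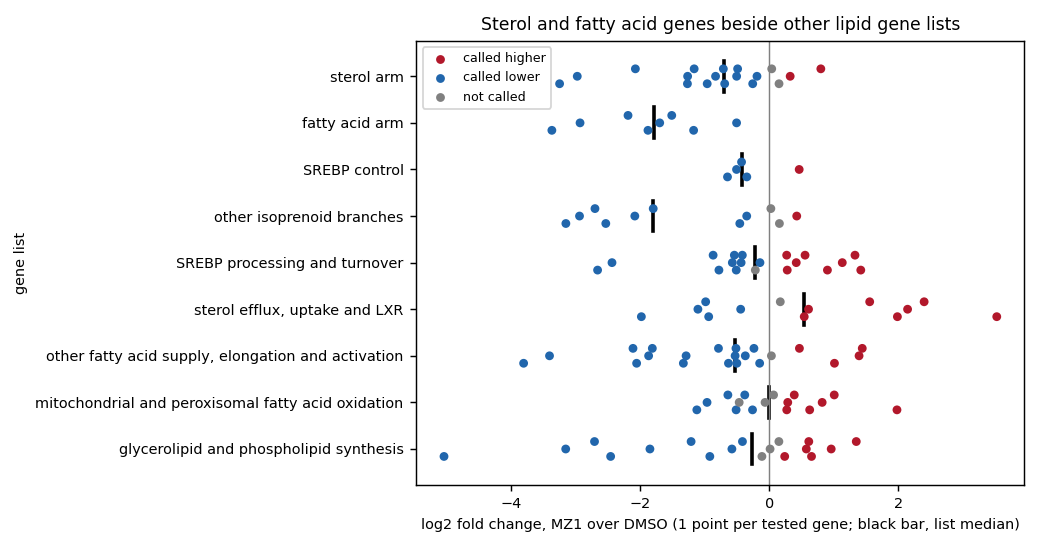
Log2 fold change (MZ1 over DMSO) of each tested gene in the sterol arm, the fatty acid arm, SREBP control and 6 neighbouring lists, coloured by call, with the list median as a black bar. The fatty acid arm (median −1.79) lies wholly to the left of 0, whereas genes of SREBP processing, sterol efflux and fatty acid oxidation lie on both sides. Other isoprenoid branches have a median of −1.80, with 8 of 11 genes called lower and 1 higher.

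Of the genes of fatty acid breakdown, 7 of 16 were higher, 6 lower and 3 not called, close to the shares over all tested genes (42.8% higher and 41.3% lower). HADHA and HADHB, the subunits of the mitochondrial trifunctional protein, rose 1.54-fold and 1.77-fold. ACAA2, ACADM and ETFB, which also serve mitochondrial oxidation, fell 2.18-fold, 1.56-fold and 1.95-fold.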

How the data were processed

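The authors deposited raw counts of reads for each Ensembl gene in 4 libraries, per the file headers. Total RNA was extracted with TRIzol and made into libraries with an Illumina TruSeq RNA kit, per the labels' protocols. Per the submitters' processing notes, the tool was HISAT2 2.2.0 and the build hg38. Which counting program, annotation and strand option were applied is not given in the sources used here. Symbols came from a gene name table (28597 of 28814 IDs), and positions and exon lengths from GENCODE release 29 (GRCh38).

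Tests used edgeR 4.0.16 in R 4.3.3. Counts passing filterByExpr by group were scaled with TMM and fitted with the quasi-likelihood model on treatment alone, with Benjamini-Hochberg adjustment over all 16862 tested genes. Each standard error is the unshrunk log2 coefficient divided by the square root of its F statistic. Replicates differed by more than sampling noise (chi-square per degree of freedom 2.17 for MZ1 and 2.44 for DMSO), so each library counts once. Alternatives used DESeq2 1.42.0, limma 3.58.1, other scalings and filters, the replicate block and each library left out. The fit was tested on simulated data. All members are named, with up to 3 genes in each direction from each neighbouring list, except some that are not reported here. The members and lists were chosen with earlier results of these data known. List counts and medians carry no test of their own. Promoter sequences are from RefSeq.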

Additional observations from a re-analysis of the deposited data

How the results depend on the processing

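Of the 32 genes, 25 kept direction and call under all 12 alternatives to the fit, as did the 34 genes chosen from other lists. The 8 fatty acid genes were called lower in each. The other 7 were HMGCS1, IDI1, FDFT1, HSD17B7, STARD4, INSIG2 and SCAP. The sign reversed for HMGCS1 (0.0805), FDFT1 (0.0143) and STARD4 (0.24) with upper-quartile scaling, and for STARD4 with the stricter filter (0.13). It reversed for IDI1 when scaled by library totals (−0.0388), with no count filter (−0.0392) and without either DMSO library, with a range of −0.00684 to 0.0543 over the 4 libraries left out. The cause was not tested. Called rises numbered 6 with upper-quartile scaling and 5 with the stricter filter (4 of them sterol enzymes in each). The sterol median was −0.43 with upper-quartile scaling, −0.53 with the stricter filter, −0.78 by library totals and −0.78 with no filter, and −0.82 to −0.66 with 1 library left out. The fatty acid median was −1.52, −1.62, −1.87 and −1.87 in those settings, −1.76 with DESeq2 size factors, −1.76 with the DESeq2 test, and −1.84 to −1.78 with 1 library left out. The arms' log2 ratio changed by 0.88 without the most abundant gene of each. With the replicate block 3 members were higher and 26 lower, and 7107 genes were higher and 6856 lower in all, against 7222 and 6969. Replicates of the same number did not deviate together across genes (correlation of deviations 0.01), which cannot show whether they were processed together. With 1 library left out, the lone library is assumed to vary like the other group. Depth limits CYP51A1 most, at 11 reads in 1 library.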

Other observations

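Of the genes of glycerolipid and phospholipid synthesis, which use the fatty acids made by the pathway, 9 of 18 tested were lower, 6 higher and 3 not called (median −0.27), against 41.3% lower and 42.8% higher over all tested genes. AGPAT3 and AGPAT5, acyltransferases that load the second fatty acid onto the glycerol backbone, fell 5.51-fold and 6.55-fold, and PTDSS1, which makes phosphatidylserine, fell 2.32-fold. LPIN2, a phosphatidic acid phosphatase gene, rose 1.95-fold, CHKA, the kinase that starts phosphatidylcholine synthesis, rose 2.55-fold, and DGAT1, which completes triglycerides, rose 1.57-fold. DGAT2, the other enzyme of that reaction, fell 8.93-fold, to 1.49 and 2.17 CPM with MZ1, against 15.6 and 17.1 CPM with DMSO, and was named after its values were seen. The antisense gene SREBF2-AS1, named after its values were seen, had 503 and 545 reads with MZ1, against 174 and 139 with DMSO, while SREBF2 fell. They share 3.71% of the exonic length of SREBF2, and the strand setting of the counts is not given.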
